A study of Mus musculus with 12 samples.

Results

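The rectum of colitis mice was compared with the rectum of normal mice by RNA sequencing, with 3 mice in each group and neither group receiving berberine (BBR). These 6 mice were taken from 12 by their labels, and the other 6 were colitis and normal mice that received BBR. All were male C57BL/6 mice of 8 to 10 weeks. Colitis mice drank water with 2.5% dextran sulfate sodium (DSS) for 7 days, and normal mice drank water without it. Normal mice are numbered 1, 3 and 4 in the labels, and colitis mice 1, 2 and 4. The labels name the tissue as colorectum, whereas the methods of the study name rectal samples. Nothing in the labels says whether mice shared a cage or a litter, so P-values measure the spread between these 12 animals only.

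DSS is a sulfated polysaccharide that injures the epithelium lining the large bowel, lets bacteria reach the tissue beneath and sets off an acute inflammation. In the textbook picture the epithelium and resident macrophages release chemokines and cytokines, neutrophils and monocytes enter from the blood, and epithelial cells make antimicrobial proteins. Crypts lose their stem cells in damaged stretches, and the surviving epithelium turns on a repair programme that resembles the fetal gut. Bulk tissue was sequenced here, so fewer cells of a type and less RNA per cell cannot be told apart.

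The mice numbered 4 stood apart in every group. Their column totals were 482194 to 504337 FPKM (a level scaled for transcript length and sequencing depth), against 696286 to 765876 in the other mice, and 872 to 1086 of their 17734 genes were listed at 0, against 1332 to 1926. No read counts were given. Among genes with a lone annotated transcript, low values fell on rough steps, which put 3 reads on a transcript of 2000 bases at 0.0784 to 0.0892 FPKM in the mice numbered 4 and at 0.117 to 0.13 FPKM in the others. Values under these levels carry little information and cover counting error only. The median of each gene list is therefore also given within the mice numbered 1 to 3 (2 against 2) and within the mice numbered 4 (1 against 1, with no test), in that order, as its within-number medians. The epithelial identity of the tissue was plain in all 6 mice. The summed level of 8 pan-epithelial markers was 9292 to 12803 FPKM in normal mice and 8775 to 12174 FPKM in colitis mice.

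How many genes differed between colitis and normal mice, and in which direction, depended on how the mice numbered 4 were treated. Of 15315 genes tested on log2(FPKM + 0.1), 100 were higher in colitis mice (0.653%) and 65 lower (0.424%) with limma's Benjamini-Hochberg adjusted p under 0.05. The groups did not overlap for any of these 165 genes. Over all tested genes, values did not overlap for 7.1% in the higher and 22.2% in the lower direction. With no adjustment, at the limit of the study (P up to 0.05), 852 genes were higher (5.56%) and 2428 lower (15.9%). This lean to the lower side depended on scaling. Over all tested genes the median log2 fold change was −0.32 before and −0.05 after quantile normalization, where 1488 genes passed the same limit upward and 1521 downward. The medians of gene lists given later stand against this value, or against −0.42 and −0.10 for the within-number medians, and counts of list members below 0 stand against the 73.7% of all tested genes that were below 0. All 100 higher and all 65 lower genes kept their direction after quantile normalization and after median centring. They also kept it within the mice numbered 1 to 3, within the mice numbered 4 and in each fit that left out 1 mouse. The lack of overlap had fixed the direction in these subsets in advance. The adjusted calls of these genes were less secure, since 8 of the 100 and 1 of the 65 passed in all 6 fits without 1 mouse. In the mice numbered 1 to 3 alone, 239 genes were higher and 565 lower by the same rule, including 85 of the 100 and 47 of the 65. Blocking on the mice numbered 4 raised the number of called genes to 1412, with 429 higher (2.8%) and 983 lower (6.42%), so the balance turned to the lower side, and all 165 were among them. Without 1 mouse the number ran from 11 (without normal mouse 1) to 211 (without colitis mouse 4). Shares of all tested genes in the same direction are given beside list counts as the background.

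**Figure D1:**
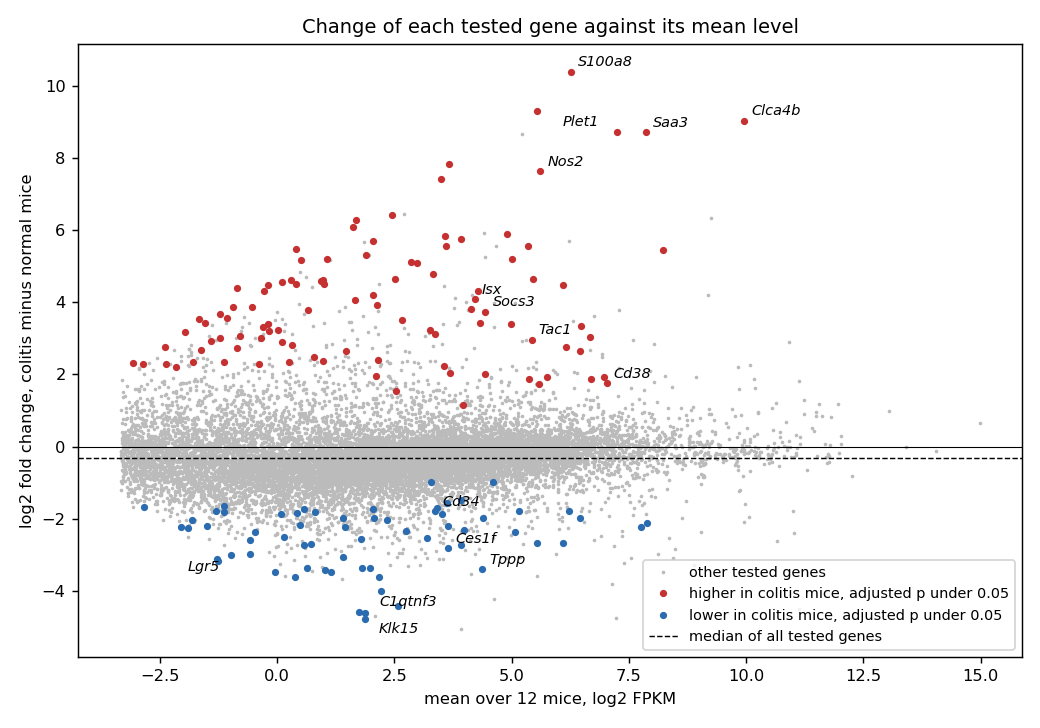
Each point is 1 of 15315 tested genes, with its mean over the 12 mice (log2 FPKM) on the horizontal axis and its log2 fold change, colitis minus normal mice, on the vertical axis. Red points (100) and blue points (65) passed the adjusted limit, the red points reach far higher values than the blue ones reach low values, and the dashed line marks the median of all genes at −0.32.

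Among the genes called in all 6 fits without 1 mouse, 6 had a mean of at least 1 FPKM, and all 6 were higher in colitis mice. Clca4b, a member of the family of calcium-activated chloride channel regulators, was at 3.44, 5.72 and 5.46 FPKM in normal mice and at 3067, 3291 and 1636 FPKM in colitis mice. The groups were far apart, by 9.03 ± 0.98 (SE) on the log2 scale (limma adjusted p = 0.00325). Socs3, a feedback inhibitor that cytokine receptors induce through Stat3, was at 2.25 to 4.65 FPKM in normal mice and at 38.3, 40.2 and 60.6 FPKM in colitis mice (log2 fold change 3.74 ± 0.40 SE, limma adjusted p = 0.00325). Unlike most risen genes, it was highest in colitis mouse 4. Cd38, a surface enzyme that consumes NAD, had little spread among normal mice, with 67.1, 68.6 and 63.1 FPKM in normal mice and 260, 210 and 206 FPKM in colitis mice (log2 fold change 1.76 ± 0.20 SE, limma adjusted p = 0.00325).

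Tac1, which encodes the precursor of the neuropeptide substance P, was at 8.33, 12.7 and 16.7 FPKM in normal mice and at 100, 84.7 and 99.7 FPKM in colitis mice (limma adjusted p = 0.00708). Substance P is made by enteric and sensory neurons, whose other markers are given further on. Cxcl2, a neutrophil chemokine, was at most 0.08 FPKM in normal mice and at 6.93, 19.0 and 6.09 FPKM in colitis mice (limma adjusted p = 0.00707). Myot, which encodes a protein of the muscle Z disc, read 0 in each normal mouse and 8.55, 2.64 and 3.72 FPKM in colitis mice (limma adjusted p = 0.00239, the smallest of all genes). No fold change is given for genes listed at 0 throughout a group. The 3 other genes called in every such fit had means under 1 FPKM: Csf3 and Sirpb1c were higher and Klk1b5 lower. Klk1b5, a tissue kallikrein, was at 2.11 to 2.21 FPKM in normal mice and between 0.09 and 0.11 FPKM in colitis mice (limma adjusted p = 0.00325), although reads of this family of near-identical genes may be split unevenly by the authors' estimation.

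Proteins of antibacterial defence made up much of the top of the list. Of 32 listed acute phase and antimicrobial genes, 24 were tested and 20 of these had a positive log2 fold change, with a median of 3.37. The adjusted limit was passed by 9 in the higher and 0 in the lower direction (background 0.653% and 0.424%), and the unadjusted limit by 17 and 1 (background 5.56% and 15.9%). The median was 3.77 within the mice numbered 1 to 3 and 2.27 within the mice numbered 4. Reg3g, a lectin that kills Gram-positive bacteria, was listed at 0 in normal mice and at 79.7, 29.5 and 4.92 FPKM in colitis mice (limma adjusted p = 0.0362). Its paralog Reg3b was at 0, 0.14 and 0 FPKM in normal mice and at 401, 53.6 and 27.5 FPKM in colitis mice (limma adjusted p = 0.0433). Both were highest in colitis mouse 1 and lowest in colitis mouse 4, and their standard errors on the log2 scale were wide, 1.89 for Reg3b.

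Saa3, a serum amyloid A protein made at inflamed sites, was at 0.51, 1.1 and 0.92 FPKM in normal mice and at 433, 2181 and 59.7 FPKM in colitis mice (log2 fold change 8.72, limma adjusted p = 0.0279). Here mouse 2 was the highest. Slpi, an inhibitor of neutrophil elastase, was at 6.59 to 14.2 FPKM in normal mice and at 263, 1294 and 284 FPKM in colitis mice (log2 fold change 5.44, limma adjusted p = 0.014). Ltf, which encodes the iron-binding protein lactoferrin, was at most 0.12 FPKM in normal mice and at 24.4, 32.7 and 26.8 FPKM in colitis mice (limma adjusted p = 0.0151). Lbp, which hands bacterial lipopolysaccharide to its receptor, was at 1.91 to 3.9 FPKM and at 19.4, 20.5 and 26.6 FPKM (limma adjusted p = 0.0173), so Ltf and Lbp were even across the 3 colitis mice while Saa3 was not.

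Nos2 and Duox2, enzymes that make reactive nitrogen and oxygen species, were higher too. Nos2, the inducible nitric oxide synthase, was at 1.05, 0.44 and 0.42 FPKM in normal mice and at 192, 105 and 125 FPKM in colitis mice, by 7.64 ± 1.08 (SE) on the log2 scale (limma adjusted p = 0.0125). Duox2, an epithelial oxidase that produces hydrogen peroxide, was at 19.6 to 31.0 FPKM and at 230, 237 and 140 FPKM (limma adjusted p = 0.0421). Saa1, a secreted relative of Saa3 at 1946 to 6380 FPKM in normal mice, overlapped between the groups (log2 fold change 0.98 ± 0.98 SE, limma adjusted p = 0.548).

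**Figure D2:**
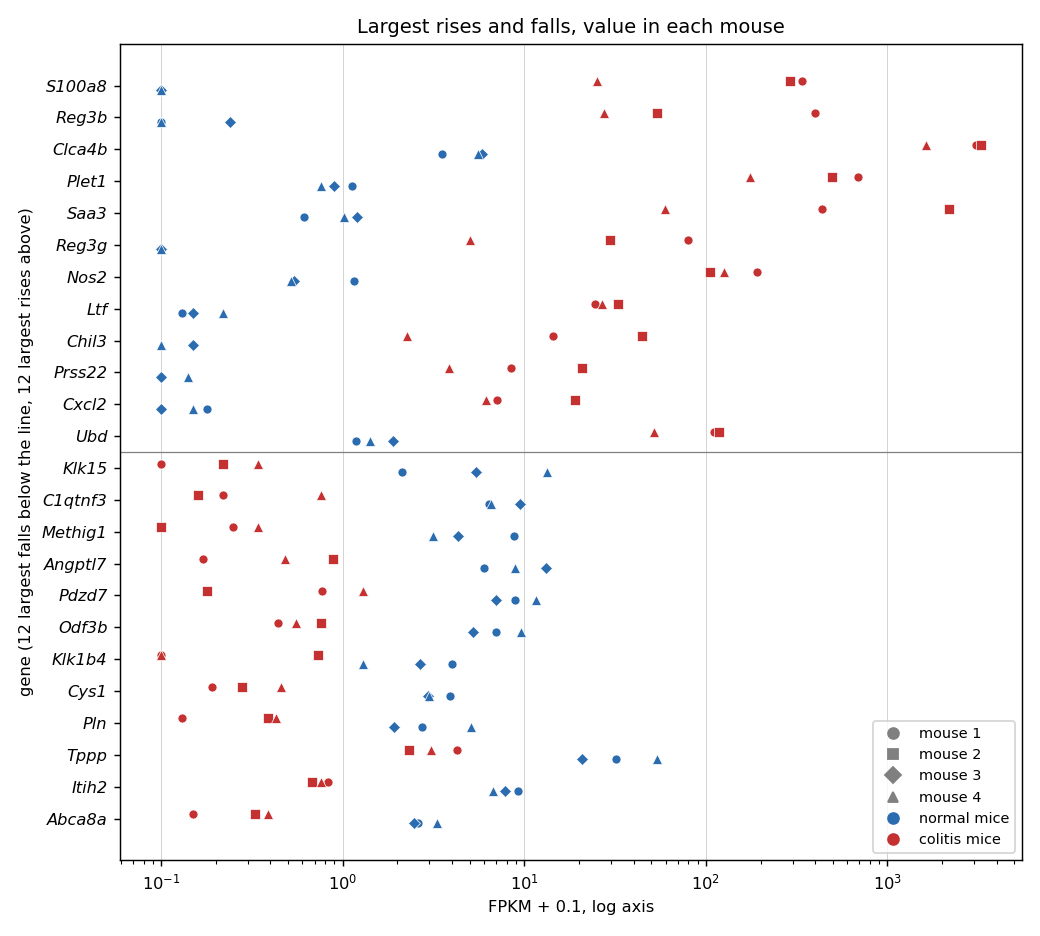
FPKM + 0.1 on a log axis in each of the 6 mice for the 12 largest rises and 12 largest falls of genes that passed the adjusted limit and averaged 1 FPKM or more. Blue marks are normal mice, red marks are colitis mice and shapes give the mouse number; no gene shows overlap, and colitis mouse 4 (red triangle) is often the colitis mouse nearest to the normal mice among the rises.

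All 16 neutrophil markers had a positive log2 fold change, with a median of 3.49. Of these, 5 passed the adjusted limit (background 0.653%), 15 the unadjusted limit (background 5.56%) and 14 the adjusted limit in the blocked fit (background 2.8%), and the median was 4.12 within the mice numbered 1 to 3 and 2.05 within the mice numbered 4. S100a8, a subunit of calprotectin, read 0 in each normal mouse and 336, 290 and 24.9 FPKM in colitis mice (limma adjusted p = 0.0254). Its partner S100a9 had a limma adjusted p of 0.0514 and did not pass. Fpr1 and Fpr2, receptors for bacterial formyl peptides, were at most 0.3 FPKM in normal mice and at 0.48 to 2.07 and 0.98 to 6.14 FPKM in mice with colitis (limma adjusted p = 0.0289 and 0.034). Mmp8, a collagenase stored in neutrophil granules, was at most 0.03 FPKM in normal mice and at 1.01, 3.49 and 0.44 FPKM in colitis mice (limma adjusted p = 0.0375). Mouse 2 was the highest for Fpr1, Fpr2 and Mmp8, and mouse 4 the lowest for each.

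Of 15 macrophage and monocyte markers, 12 had a positive log2 fold change, with a median of 1.2 (within-number medians 1.06 and 0.23), and 2 passed the adjusted limit (background 0.653%). Chil3, a chitinase-like protein of activated myeloid cells, was at no more than 0.05 FPKM in normal mice and at 14.3, 44.3 and 2.15 FPKM in colitis mice (limma adjusted p = 0.0157). Mouse 2 was again the highest and mouse 4 the lowest.

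The neutrophil chemokines Cxcl1, Cxcl2 and Cxcl3 lie close together on chromosome 5, and all of them passed the adjusted limit. Cxcl1 was at 0.38, 0.39 and 0.59 FPKM in normal mice and at 19.0, 103 and 13.2 FPKM in colitis mice (log2 fold change 5.77, limma adjusted p = 0.0288), and Cxcl3 was listed at 0 in normal mice and at 4.58, 7.74 and 1.16 FPKM in colitis mice (limma adjusted p = 0.0477). As with Cxcl2, mouse 2 was the highest and mouse 4 the lowest. Their promoters are shown because these neighbouring genes rose together. Each line gives the 110 bases just before the RefSeq start on the plus strand of GRCm38.p6, with capitals where the kappa B pattern GGGNNNTTCC, typical of sites for NF-kappaB, matches on either strand. The regions are chr5:90891135-90891244 for Cxcl1, chr5:90903789-90903898 for Cxcl2 and chr5:90785991-90786100 for Cxcl3.
Cxcl1: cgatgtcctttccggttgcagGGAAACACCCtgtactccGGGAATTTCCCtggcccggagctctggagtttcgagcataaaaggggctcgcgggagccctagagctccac
Cxcl2: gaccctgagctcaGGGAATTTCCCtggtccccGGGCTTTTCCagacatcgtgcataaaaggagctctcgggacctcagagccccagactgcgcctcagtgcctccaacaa
Cxcl3: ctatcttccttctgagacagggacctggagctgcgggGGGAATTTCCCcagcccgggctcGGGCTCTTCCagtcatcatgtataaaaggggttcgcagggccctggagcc

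Each promoter held 3 matches in 2 stretches of capitals, since GGGAATTTCCC matches on both strands with overlap. The matches began 70 to 89 bases before the start in Cxcl1, 78 to 97 in Cxcl2 and 50 to 73 in Cxcl3. Of 32851 promoters in the RefSeq table, 4.65% had at least 1 match in the 250 bases before the start, as had 6.31% of the 12160 tested genes that could be matched to it by symbol. Among the genes past the adjusted limit, 10 of 81 matched higher genes had one (12.3%) and 3 of 51 matched lower genes (5.88%). The 10 were Cxcl1, Cxcl2, Cxcl3, Il6, Ubd, Lrg1, Ifit2, Wfdc12, Lgmn and Lilra6. A match describes letters and is not a measured binding site.

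A list of cytokines of the IL-1, IL-6 and colony stimulating factor families, which also held Tnf, Lta, Ltb, Il10, Il22, Il17a, Il17c and Il23a, had 17 of 22 tested genes above 0 and a median log2 fold change of 1.67 (2.42 within the mice numbered 1 to 3, 0.66 within the mice numbered 4). The adjusted limit was passed by 6 in the higher direction, namely Csf3, Tnf, Il11, Il6, Il1a and Il1b (background 0.653%), and by 1 in the lower, Ctf1 (background 0.424%). Csf3, the growth factor of the neutrophil lineage, was listed at 0 in normal mice and at 2.03, 2.76 and 1.44 FPKM in colitis mice (limma adjusted p = 0.00251). Tnf was at 0.33 to 0.4 FPKM in normal mice and at 17.2, 23.4 and 8.94 FPKM in colitis mice (log2 fold change 5.08, limma adjusted p = 0.0141). Il11, which stromal cells release after injury, was at 0.08 to 0.24 FPKM and at 4.35, 12.9 and 2.56 FPKM (limma adjusted p = 0.0162), and Il6 was at most 0.08 FPKM and at 4.01, 5.48 and 1.49 FPKM (limma adjusted p = 0.0218). Ctf1, an IL-6 family member best known from heart muscle, went the other way, from 2.39, 2.48 and 1.43 FPKM to 0.41, 0.49 and 0.61 FPKM (limma adjusted p = 0.0312).

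Of 33 cytokine receptor and feedback genes, 20 were above 0 with a median of 0.44 (within-number medians 0.36 and 0.47). Socs3 was the 1 gene past the adjusted limit (background 0.653%), and 7 were higher past it in the blocked fit (background 2.8%). At the unadjusted limit 14 were higher and 3 lower (background 5.56% and 15.9%). Among 16 prostanoid genes 7 were above 0 with a median of −0.43 (within-number medians −0.46 and −0.45) and none passed that limit, with 1 higher and 5 lower at the unadjusted one, against 5.56% and 15.9% of all genes. Ptges, which makes prostaglandin E2, was at 1.7 to 3.52 FPKM in normal and 4.27 to 7.88 FPKM in mice with colitis (limma adjusted p = 0.109), and Hpgd, which breaks it down, at 156 to 248 and 59.1 to 123 FPKM (limma adjusted p = 0.157).

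The interferon-gamma and antigen presentation list pointed 1 way. All 33 tested genes had a positive log2 fold change, also after quantile normalization, with a median of 1.22, and 26 did not overlap between the groups against 7.1% of all genes. Only Cxcl9 passed the adjusted limit, while 21 passed the unadjusted limit in the higher direction against 5.56% of all genes and 0 in the lower. The within-number medians were 1.07 and 1.59. The adjusted limit was passed by 13 of the 33 in the fit that blocked on the mice numbered 4 (background 2.8%). Cxcl9, a chemokine for activated T cells, was at 0.53 to 0.62 FPKM in normal mice and at 7.39, 32.0 and 4.47 FPKM in colitis mice (limma adjusted p = 0.043). Psmb8, a subunit of the immunoproteasome, shows the common pattern, with 32.9 to 34.1 FPKM in normal mice and 73.6 to 87.9 FPKM in colitis mice (log2 fold change 1.29, limma adjusted p = 0.1). Ubd, a ubiquitin-like protein induced by the same cytokines that marks proteins for the proteasome, was among the 12 largest rises, at 1.08, 1.79 and 1.31 FPKM in normal mice and at 111, 118 and 51.8 FPKM in colitis mice (log2 fold change 5.91, limma adjusted p = 0.0121).

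Proteases of the matrix split by member. Of 19 tested matrix metalloproteinases and inhibitors, 12 were above 0 with a median of 0.48 (within-number medians 0.77 and 0.068), and Mmp7, Mmp3 and Mmp8 passed the adjusted limit (background 0.653%). Mmp3, a stromelysin, was at 0.34, 0.3 and 1.04 FPKM in normal mice and at 25.0, 83.4 and 17.7 FPKM in colitis mice (log2 fold change 5.84, limma adjusted p = 0.0241). Mmp7, which epithelial cells make, was at most 0.16 FPKM and at 0.81, 1.89 and 1.15 FPKM (limma adjusted p = 0.0173). Prss22, an epithelial serine protease, was among the largest rises, at most 0.04 FPKM in normal mice and at 8.36, 20.7 and 3.75 FPKM in colitis mice (limma adjusted p = 0.025). In the list of plasminogen activation and coagulation, 15 of 22 were above 0 (median 0.43, within-number medians 0.66 and 0.063), with Serpina3m (at most 0.24 FPKM, then 2.18, 15.0 and 3.69 FPKM, limma adjusted p = 0.0157) and F10, which encodes coagulation factor X (at most 0.11 FPKM, then 0.7, 2.77 and 0.69 FPKM, limma adjusted p = 0.0392), higher. Tfpi2, a protease inhibitor of the matrix, was lower, from 3.51, 2.02 and 1.83 FPKM to 0.28, 0.67 and 0.44 FPKM (limma adjusted p = 0.0328). Of 22 complement genes 14 were above 0 (median 0.61), 8 passed the unadjusted limit in the higher direction against 5.56% of all genes, and none the adjusted one. The within-number medians were 0.80 and 0.090, so complement, coagulation and metalloproteinase genes had medians near 0 in the mice numbered 4.

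**Figure D3:**
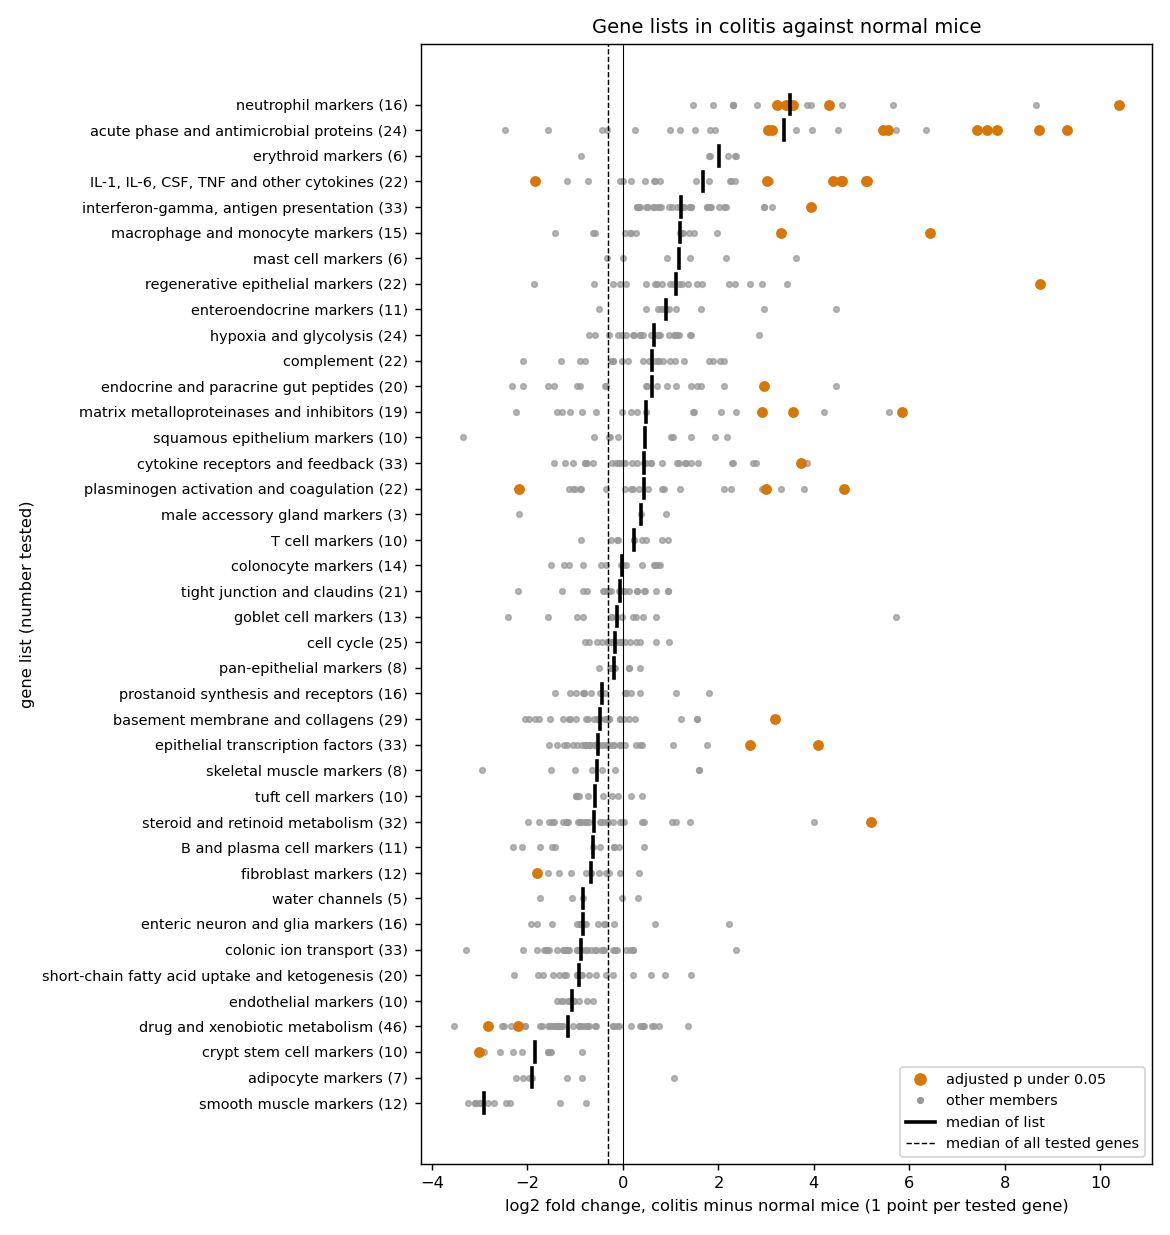
Log2 fold change, colitis minus normal mice, of every tested member of 40 gene lists, ordered by list median (black bar), with the number tested in brackets; the dashed line is the median of all genes at −0.32. Orange points passed the adjusted limit. Neutrophil markers (median 3.49) lie at the top and smooth muscle markers (median −2.91) at the bottom.

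General epithelial markers gave no call at the adjusted limit. The 8 pan-epithelial markers had a median log2 fold change of −0.18 with 3 above 0, and the 14 colonocyte markers one of −0.02 with 6 above 0, and 0 of these 22 passed the adjusted limit. The within-number medians were −0.26 and −0.013 for the former and 0.079 and −0.34 for the latter, and after quantile normalization, where the median of all genes was −0.05, the medians were −0.25 and −0.10. At the unadjusted limit 1 of them passed, Mep1a, a brush border protease, at 158 to 213 FPKM in normal mice and at 144, 86.1 and 47.1 FPKM in colitis mice (limma adjusted p = 0.144). Cdh17, an intestinal cadherin, was at 275 to 429 FPKM and 403 to 675 FPKM, and the groups overlapped. Slc26a3, the chloride and bicarbonate exchanger, did not overlap, with 803, 1306 and 890 FPKM in normal mice and 547, 370 and 361 FPKM in colitis mice (limma adjusted p = 0.26).

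Of 22 tested regenerative markers, 18 were above 0 with a median of 1.12 (1.41 within the mice numbered 1 to 3, 0.41 within the mice numbered 4), 10 passed the unadjusted limit in the higher direction (background 5.56%) and 1, Plet1, the adjusted one (background 0.653%). Plet1, a surface protein of placental and regenerating epithelium, was at 1.03, 0.79 and 0.66 FPKM in normal mice and at 690, 493 and 175 FPKM in colitis mice (log2 fold change 8.74 ± 1.35 SE, limma adjusted p = 0.0163). Ly6a, which encodes the surface antigen Sca-1, was at 453, 665 and 323 FPKM and at 4541, 5312 and 1693 FPKM. Its groups did not overlap, but it missed the limit (log2 fold change 2.90, limma adjusted p = 0.075), and with the mice numbered 4 as a block its adjusted p was 0.00956. The 4 members below 0 were Ccn2, Ccn1, Clu and Anxa3, the first pair being targets of Yap in many tissues.

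The 13 goblet cell markers had a median of −0.12 with 5 above 0 (within-number medians −0.068 and −0.41), and diverged. Retnlb, a bactericidal goblet cell product, was at 8.65, 2.2 and 1.8 FPKM in normal mice and at 156, 292 and 121 FPKM in colitis mice (log2 fold change 5.71, limma adjusted p = 0.0577, with the mice numbered 4 as a block 0.0176). Klk1, tissue kallikrein, was at 3577, 3510 and 1479 FPKM and at 290, 1015 and 425 FPKM (log2 fold change −2.40, limma adjusted p = 0.0613, with the block 0.0137). Atoh1, the transcription factor that specifies secretory cells, was at 28.6 to 34.4 FPKM and 9.88 to 20.6 FPKM (limma adjusted p = 0.11, with the block 0.0452). For all 3 genes the groups did not overlap, which in an exact permutation test of 3 against 3 gives a two-sided p of 0.1, the smallest possible.

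Crypt stem cell markers were low. All 10 tested markers had a negative log2 fold change, with a median of −1.84 (−1.52 after quantile normalization). At the unadjusted limit 8 were lower against 15.9% of all genes, and 1 passed the adjusted limit (background 0.424%). That gene, Lgr5, the Wnt target that marks stem cells of the crypt base, was at 0.87, 1.41 and 1.27 FPKM in normal mice and at 0, 0.01 and 0.25 FPKM in colitis mice (limma adjusted p = 0.0367). Colitis mice 1 and 2 were under the level of 3 reads, so no fold change is given. Mouse 4 kept the most: the summed level of the list was 57.2 to 71.2 FPKM in normal mice and 12.6, 14.1 and 51.5 FPKM in colitis mice 1, 2 and 4. The list median was −2.3 within the mice numbered 1 to 3 and −0.90 within the mice numbered 4. The adjusted limit was passed by 5 of the 10 in the fit that blocked on the mice numbered 4 (background 6.42%). The 25 cell cycle genes did not follow, with a median of −0.17 that turned to 0.15 after quantile normalization (within-number medians −0.39 and 0.40), 0 past the adjusted limit and 1 past the unadjusted one, Cdkn1a, an inhibitor of cyclin-dependent kinases, at 220 to 319 FPKM and 143 to 215 FPKM (limma adjusted p = 0.232).

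Of 11 enteroendocrine markers 10 were above 0, with a median of 0.90, 2 past the unadjusted limit (background 5.56%) and 0 past the adjusted limit. The within-number medians were 1.42 and 0.17. Their summed level was 541 to 1034 FPKM in normal mice and 2656, 5843 and 753 FPKM in colitis mice 1, 2 and 4, so colitis mouse 4 lay in the normal range. Cck, which encodes cholecystokinin, was at 1.41, 1.11 and 0.5 FPKM in normal mice and at 29.6, 53.6 and 7.16 FPKM in colitis mice (limma adjusted p = 0.0706). Gcg, from which glucagon-like peptides are cut, was at 41.4, 46.5 and 22.9 FPKM and at 306, 708 and 93.6 FPKM (limma adjusted p = 0.102). Neither gene overlapped between the groups, and both passed with the mice numbered 4 as a block (limma adjusted p = 0.014 and 0.00949). Of 20 endocrine and paracrine gut peptides 12 were above 0 (median 0.60, within-number medians 0.83 and −0.19) and Tac1 alone passed the adjusted limit.

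In the list of 33 epithelial transcription factors and nuclear receptors, 2 genes passed the adjusted limit in the higher direction (background 0.653%). Of the 33, 8 were above 0 with a median of −0.53 (within-number medians −0.67 and −0.089). Isx, the intestinal homeobox factor that represses carotenoid cleavage, was at 3.8, 3.02 and 1.43 FPKM in normal mice and at 56.6, 48.8 and 32.3 FPKM in colitis mice (log2 fold change 4.08 ± 0.52 SE, limma adjusted p = 0.00894) and was called in 5 of the 6 fits without 1 mouse. Prdm1, which encodes the repressor Blimp-1 and which plasma cells also express, was at 0.63 to 1.21 FPKM and at 6.82, 6.21 and 5.45 FPKM (limma adjusted p = 0.0421). Dhrs9, a retinol dehydrogenase of the retinoic acid route, was at 1.59 to 2.11 FPKM and at 80.2, 133 and 37.5 FPKM (log2 fold change 5.19, limma adjusted p = 0.0279). Of the 32 steroid and retinoid genes tested 24 were below 0, near the share of all genes (median −0.60, within-number medians −0.52 and −0.31).

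The largest falls came from genes of modest level. Klk15, a serine protease of the kallikrein family, was at 2.03, 5.33 and 13.2 FPKM in normal mice and at 0, 0.12 and 0.24 FPKM in colitis mice (limma adjusted p = 0.0289), and Klk1b4, its relative, was at 3.9, 2.56 and 1.2 FPKM and at 0, 0.63 and 0 FPKM (limma adjusted p = 0.0344). C1qtnf3, a secreted C1q-like protein, was at 6.32, 9.42 and 6.49 FPKM and at 0.12, 0.06 and 0.66 FPKM (limma adjusted p = 0.0121). Methig1, a predicted methyltransferase, was at 3.03 to 8.71 FPKM and at most 0.24 FPKM (limma adjusted p = 0.0289), and Angptl7, a secreted angiopoietin-like protein, at 5.87 to 13.1 FPKM and at most 0.78 FPKM (limma adjusted p = 0.044). Most colitis values of these 5 genes were near or under the level that a few reads give, so no fold change is given.

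Tppp, which binds tubulin in oligodendrocytes and other cells, was better measured, at 31.9, 20.6 and 53.5 FPKM in normal mice and at 4.14, 2.23 and 2.96 FPKM in colitis mice (log2 fold change −3.40 ± 0.51 SE, limma adjusted p = 0.0155). Itih2, a carrier of hyaluronan, was at 9.1, 7.76 and 6.63 FPKM and at 0.73, 0.58 and 0.66 FPKM (limma adjusted p = 0.0291), with little spread in either group. Pln, the inhibitor of the calcium pump of smooth and heart muscle, was at 1.82 to 4.97 FPKM and at 0.03 to 0.33 FPKM (limma adjusted p = 0.0362). The remaining genes of the 12 were Pdzd7, Odf3b and Cys1, which have known roles in stereocilia, sperm tails and cilia, and the transporter gene Abca8a. Their levels were 2.38 to 11.4 FPKM in normal and 0.05 to 1.19 FPKM in mice with colitis (limma adjusted p = 0.0276 to 0.0477).

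Lists of absorption and metabolism had medians below that of all genes, with few single calls. Of 46 tested drug and xenobiotic metabolism genes 37 were below 0 with a median of −1.16 (−1.14 within the mice numbered 1 to 3, −0.66 within the mice numbered 4, −0.92 after quantile normalization). At the unadjusted limit 20 were lower against 15.9% of all genes, and 2 were higher. Ces1f, a carboxylesterase, and Cyp2d26, a cytochrome P450, passed the adjusted limit, which 8 passed in this direction in the blocked fit (background 6.42%). Ces1f was at 40.9, 16.52 and 11.54 FPKM in normal mice and at 2.84, 2.63 and 2.71 FPKM in colitis mice (log2 fold change −2.82, limma adjusted p = 0.0218). Cyp2d26 was at 24.1, 12.7 and 10.98 FPKM and at 4.23, 2.22 and 3.4 FPKM (limma adjusted p = 0.0382). In both genes normal mouse 1 was the highest, and the colitis mice lay close together for Ces1f only.

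Of 33 ion transport genes 28 were below 0, against 73.7% of all genes, with a median of −0.87 (within-number medians −0.99 and −0.51). At the unadjusted limit 1 was higher and 10 lower, against 5.56% and 15.9% of all genes, and 0 passed the adjusted limit. Slc20a1, a sodium-dependent phosphate transporter, was at 837, 1134 and 492 FPKM in normal mice and at 112, 52.5 and 83.9 FPKM in colitis mice (log2 fold change −3.29, limma adjusted p = 0.0914), and Nr3c2, the receptor of aldosterone, at 40.8 to 53.9 FPKM and 18.9 to 27.8 FPKM (limma adjusted p = 0.116). Car12, a carbonic anhydrase, went the other way, at 1.11 to 3.11 FPKM and 5.06 to 16.6 FPKM (limma adjusted p = 0.0797). With the mice numbered 4 as a block it alone of the list passed (limma adjusted p = 0.0235). None of the 3 overlapped between the groups. Of 5 tested water channels 4 were below 0 (median −0.83, within-number medians −0.83 and −0.46), and Aqp8, the abundant one, overlapped between the groups, with 477 to 1258 FPKM and 267 to 881 FPKM.

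Of 20 genes of short-chain fatty acid uptake and ketogenesis 16 were below 0, with a median of −0.92. It was −1.24 within the mice numbered 1 to 3 and −0.16 within the mice numbered 4, close to the −0.10 of all genes there. Hypoxia and glycolysis genes lay on the opposite side, with 19 of 24 above 0, a median of 0.65 (within-number medians 0.61 and 0.45), and 11 higher and 1 lower at the unadjusted limit, against 5.56% and 15.9% of all genes. Of these, Ero1a, an oxidase of protein folding, was at 18.2 to 21.1 FPKM and at 65.5, 52.2 and 43.1 FPKM (limma adjusted p = 0.0698). Hk2, a hexokinase, was at 35.9 to 58.0 FPKM and 84.0 to 118 FPKM (limma adjusted p = 0.0829). In the blocked fit 4 of the list were higher and 1 lower past the adjusted limit (background 2.8% and 6.42%). Ero1a and Hk2 were among the 4 (limma adjusted p = 0.0309 and 0.0409 there). The 21 tight junction genes went both ways, from −2.20 to 0.95, with a median of −0.06 (0.10 after quantile normalization, within-number medians −0.12 and 0.073) and 1 past the unadjusted limit, the polarity gene Pard3.

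Among markers of the bowel wall beneath the epithelium, those of smooth muscle had the lowest median. All 12 smooth muscle markers had a negative log2 fold change, with a median of −2.91 (−2.73 after quantile normalization, within-number medians −3.23 and −2.26) and 10 in the lower direction at the unadjusted limit (background 15.9%). None passed the adjusted limit, and 11 did in the blocked fit (background 6.42%). Actg2, the enteric smooth muscle actin, was at 382, 313 and 506 FPKM in normal mice and at 12.1, 90.3 and 88.5 FPKM in colitis mice (log2 fold change −3.09 ± 0.89 SE, limma adjusted p = 0.102). Cnn1, calponin, was at 252 to 441 FPKM and at 8.02, 99.2 and 82.1 FPKM (limma adjusted p = 0.116), and Acta2 at 301 to 697 FPKM and at 15.3, 94.8 and 159 FPKM (limma adjusted p = 0.118). The summed level of the 12 markers was 1753 to 3418 FPKM in normal mice and 101, 730 and 770 FPKM in colitis mice 1, 2 and 4. Colitis mouse 1 thus had by far the least muscle RNA of the 6. How much of each layer of the wall was sampled was not recorded in the labels, and its part in these results was not tested.

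Endothelial markers were below 0 in all 10 cases, with a median of −1.07 (within-number medians −1.1 and −1.23). Their summed level was 44.8 to 47.8 FPKM in normal mice and 11.97 to 32.55 FPKM in colitis mice. At the unadjusted limit 3 were lower (background 15.9%). None passed the adjusted limit, and 1, Pecam1, did in the blocked fit (background 6.42%). Pecam1 was at 10.3 to 10.8 FPKM and at 2.68, 5.52 and 4.43 FPKM (limma adjusted p = 0.0742, with the block 0.0317). Of 12 fibroblast markers 11 were below 0 (median −0.67, within-number medians −0.42 and −1.05), and Cd34, a sialomucin of stromal and vessel cells, passed the adjusted limit, at 11.6, 12.3 and 20.1 FPKM and at 2.65, 5.27 and 4.69 FPKM (log2 fold change −1.79, limma adjusted p = 0.0449). Their summed level nevertheless overlapped, at 348 to 589 FPKM and 213 to 820 FPKM. Of 29 basement membrane and collagen genes 22 were below 0, near the share of all genes (median −0.47, within-number medians −0.48 and −0.61), whereas Spp1, which encodes osteopontin and is also made by macrophages, was higher, at 0.06 to 0.39 FPKM and 1.13 to 5.33 FPKM (limma adjusted p = 0.0477). Of 16 enteric neuron and glia markers 14 were below 0 (median −0.84, within-number medians −0.57 and −1.14). At the unadjusted limit 1 was higher and 3 lower (background 5.56% and 15.9%), and 0 passed the adjusted limit. S100b, a glial protein, was at 1.12 to 1.45 FPKM and 0.05 to 0.79 FPKM (limma adjusted p = 0.103). Ret, the receptor that enteric neurons need to develop, was the higher one, at 0.52 to 2.04 FPKM and at 7.16, 8.66 and 2.01 FPKM, with overlap (limma adjusted p = 0.137).

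**Figure D4:**
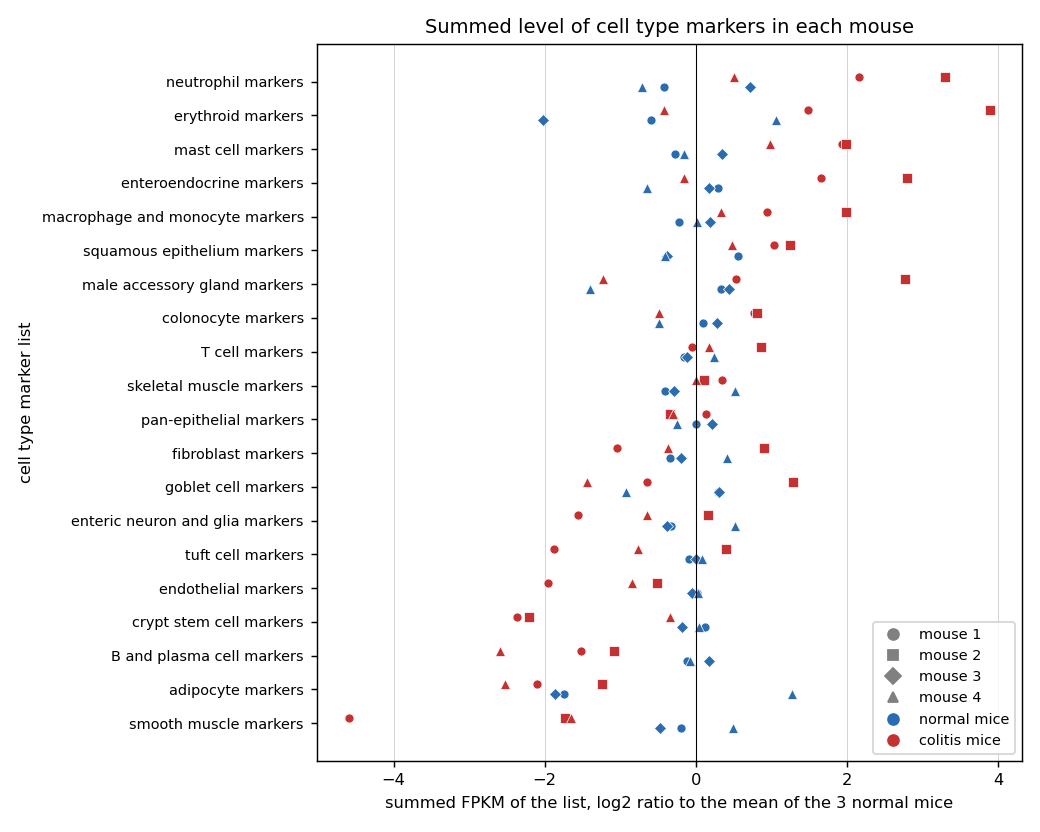
Summed FPKM of each of 20 cell type marker lists in each mouse, as the log2 ratio to the mean of the 3 normal mice. Blue marks are normal and red marks colitis mice, with shapes for the mouse number; the neutrophil sum, mostly Ly6g, is highest in colitis mouse 2 (4238 FPKM), smooth muscle sums are lowest in colitis mouse 1 (101 FPKM) and the adipocyte sum is highest in normal mouse 4 (234 FPKM).

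Other cell types gave smaller or uneven differences. Of 11 B and plasma cell markers 10 were below 0, with a median of −0.62 that was 0.20 within the mice numbered 1 to 3 and −2.64 within the mice numbered 4. At the unadjusted limit 4 were lower (background 15.9%). None passed the adjusted limit, and 2 did in the blocked fit (background 6.42%). Those 2 were Pou2af1 and Tnfrsf17 (limma adjusted p = 0.0594 and 0.0599 without the block). Their log2 fold changes were −1.79 and −1.95 within the mice numbered 1 to 3, and −2.78 and −3 within the mice numbered 4. Jchain, which links the chains of secreted IgA, was at 173 to 235 FPKM in normal mice and at 71.6, 89.5 and 32.4 FPKM in colitis mice (limma adjusted p = 0.139). The 10 T cell markers had a median of 0.23 (within-number medians 0.26 and −0.14), with 6 above 0 and 9 after quantile normalization, and 0 past the adjusted limit. Of 6 mast cell markers 4 were above 0 (median 1.17, within-number medians 1.63 and 0.51), with a summed level of 5.01 to 7.7 FPKM in normal and 11.9 to 24.0 FPKM in colitis mice. Of 10 tuft cell markers 8 were below 0, near the share of all genes (median −0.58, within-number medians −0.31 and −0.77). Squamous epithelium markers split evenly, with 5 of 10 above 0 (median 0.45, within-number medians 0.45 and 0.0055).

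In some further lists the summed level of 1 mouse stood far above the others. Adipocyte markers had a median of −1.9. Normal mouse 4 had a summed level of 234 FPKM, against 26.4 to 28.7 FPKM in the other normal mice and 16.7 to 40.6 FPKM in colitis mice, and the within-number medians were −0.16 and −3.2. Erythroid markers had a median of 2.01 (within-number medians 3.94 and −1.83), with a summed level of 610 FPKM in colitis mouse 2, 114 and 30.6 FPKM in colitis mice 1 and 4, and 10.1 to 85.6 FPKM in normal mice. Of 8 skeletal muscle markers 6 were below 0, near the share of all genes (median −0.55, within-number medians −0.50 and −0.86), with Acta1 and Tnni2 higher and Ckm, Myh2 and Actn3 lower at the unadjusted limit (background 5.56% and 15.9%). None passed the adjusted limit, and 1, Ckm, did in the blocked fit (background 6.42%). The 3 tested male accessory gland markers (within-number medians 0.42 and 0.17) had a summed level of 424 to 1512 FPKM and 477 to 7582 FPKM, almost all of it Spink1, which the gut also expresses.

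The 3 colitis mice also differed from each other. Of the 100 higher genes, 70 had their highest value in colitis mouse 2, 24 in mouse 1 and 6 in mouse 4, and 74 had their lowest in mouse 4. The median log2 fold change of the 100 was 3.93 within the mice numbered 1 to 3 and 2.87 within the mice numbered 4. The 65 lower genes were less ordered, with the lowest value in mouse 1 for 38, in mouse 2 for 15 and in mouse 4 for 12, and medians of −2.37 and −2.06. The summed neutrophil markers are dominated by Ly6g, a surface protein of the same gene family as Ly6a, which alone made up 259 to 707 FPKM in normal mice and 1406, 3710 and 557 FPKM in colitis mice 1, 2 and 4 and overlapped between the groups. The 15 other markers summed to 0.9 to 4.21 FPKM in normal mice and to 518, 528 and 53.0 FPKM in colitis mice 1, 2 and 4, so every colitis mouse was above the normal range and mouse 4 was the lowest of the colitis mice. This sum was chosen after the values were seen. The labels give no disease score per mouse, so the order could not be set against severity.

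The same contrast in 6 other mice, colitis against normal mice that all received BBR, shared no animal with these. Of the 100 higher genes 96 were also higher there and of the 65 lower genes 64 were lower, where 80.1% of all tested genes were lower. In a fit of those 6 mice alone, 58 of the 100 (58.0%) were higher with an unadjusted P of at most 0.05, against 1.78% of all tested genes, and 45 of the 65 (69.2%) were lower, against 11.9%. Median log2 fold changes were 1.67 and −1.44 there, against 3.55 and −2.32 in the mice without BBR. The genes were picked by their fold changes in the latter and by a spread fitted over all 12 mice. The smaller sizes in the former are thus no test of BBR. The shares past the unadjusted limit there are not independent of the choice of genes either. The difference itself, tested as the interaction of BBR and colitis in limma, gave 0 genes past the adjusted limit and 371 with an unadjusted P of at most 0.05. The log2 fold changes of 98 of the 100 higher genes were smaller in the second set, and the exceptions were Slpi at 5.67 and Socs3 at 3.96.

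**Figure D5:**
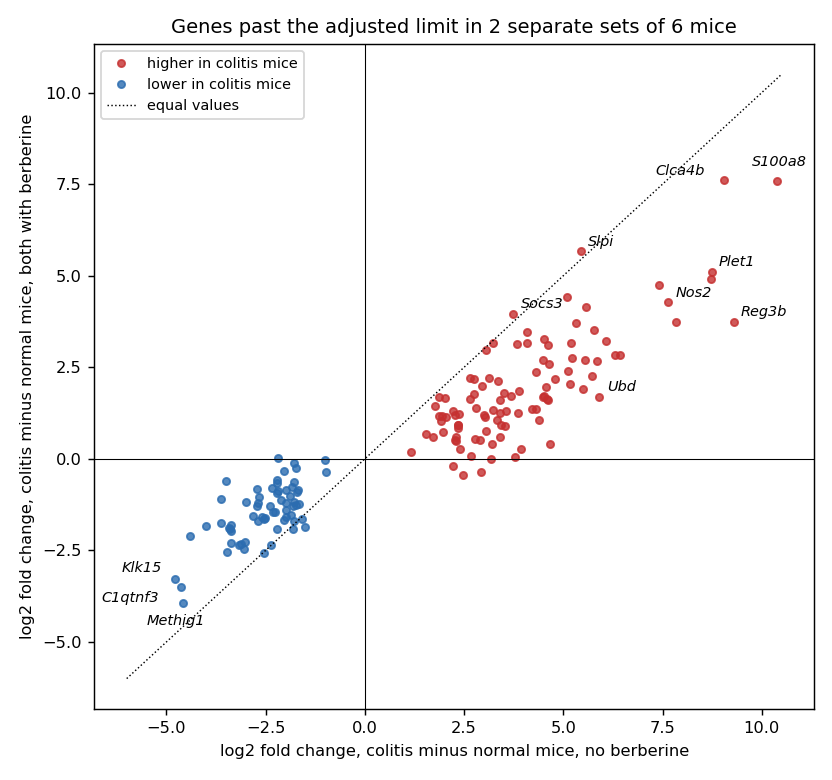
Log2 fold change, colitis minus normal mice, of the 165 genes past the adjusted limit. The horizontal axis gives the 6 mice without berberine, whose fold changes chose the genes together with a spread over all 12 mice. The vertical axis gives 6 other mice that all received berberine. Red genes were higher and blue genes lower in the first set; 96 of 100 red points lie above 0, 64 of 65 blue points lie below 0, and the dotted line marks equal values.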

How the data were processed

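Rectal RNA was depleted of ribosomal RNA and sequenced by the authors. Per the submitters' processing notes and the methods, reads were filtered with SOAPnuke, aligned with Bowtie2 2.2.5 to mm9 and quantified with RSEM 1.2.12. The deposited table holds 1 value per gene and mouse, which from its values was read as FPKM by the authors' scaling. TPM cannot be told apart. Labels and methods name different kits and sequencers.

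Mice were grouped by label. The 15315 of 17734 genes with a mean of at least 0.1 FPKM over 12 mice were fitted as log2(FPKM + 0.1), which understates changes of low genes, in limma 3.58.1 (R 4.3.3), with 1 mean per group over all 12 mice, a spread with a trend on level and Benjamini-Hochberg adjustment over all genes. The fits were tested on simulated data. Contrasts were colitis against normal, the same with BBR, and the interaction. The alternatives were 2 other pseudocounts, 2 other filters, 2 other scalings, the compared groups alone, no trend, a replicate block, the mice numbered 4 fitted as a block, a fit restricted to mice with the numbers 1 to 3, and leaving out each mouse.

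Members and lists were chosen with earlier results of these data known. The rule named the 12 largest rises and falls with an adjusted p under 0.05, at least 1 FPKM on average and no overlap, up to 10 such genes a direction called in all 6 fits without 1 mouse, and per list up to 4 members past that limit or else the 3 with the smallest P, plus members at 0 in 1 group and at 1 FPKM or more throughout the other. Other names, among them Cxcl1, Cxcl3, S100a9, Ctf1, Saa1, Ly6a, Psmb8 and Duox2, were chosen after their values were seen. Older symbols in the 40 lists were matched by RefSeq synonyms. Paralogs such as Reg3b and Reg3g, the Klk1b genes and the chemokines can share reads. Promoters came from RefSeq on GRCm38.p6, not the build of the table. Figures used Python 3.11.15 and matplotlib 3.10.9. Some list members are not reported here.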

Additional observations from a re-analysis of the deposited data

How the results depend on the processing

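The count of 165 genes past the adjusted limit moved with the setting. It was 91 with a pseudocount of 0.01, 71 for genes with a mean of at least 1 FPKM, 258 after quantile normalization, 488 with the compared groups alone, 1412 with the mice numbered 4 as a block and 804 in the mice numbered 1 to 3 alone. Without 1 mouse it ran from 11 (without normal mouse 1) to 211 (without colitis mouse 4), and it was 14, 16, 14 and 77 without normal mouse 3, normal mouse 4, colitis mouse 1 and colitis mouse 2. The 3280 genes at the unadjusted limit became 5119 in the mice numbered 1 to 3 alone and 2150 to 4807 without 1 mouse. Under BBR the count of 6 genes became 2 with no filter, 3 after median centring, 0 with the groups alone (2093 at an unadjusted P of at most 0.05), 12 with no trend, 268 with the mice numbered 4 as a block, 2302 in the mice numbered 1 to 3 alone and 0 to 2255 without 1 mouse (2255 without colitis mouse 4). The interaction had 0 genes in each setting run. With the replicate block 734 genes passed, 99 of the 100 higher and 63 of the 65 lower among them, and 7 under BBR. The compared groups share only the numbers 1 and 4, where the deviations correlated at 0.386 and 0.396. Over all groups 12 of 13 pairs of the same number were over 0.1, the pairs of mice numbered 4 from 0.357 to 0.751, and the lowest, of the mice numbered 2, was 0.078. With fewer than 3 pairs in the compared groups and 1 pair under 0.1, the numbers were not taken to pair the mice. None of the 52 named genes past the adjusted limit changed direction in any of these settings. For the fits on fewer mice, their lack of overlap had fixed this in advance. Of the other 72 named genes, Cldn3 (−0.26) went to 0.076 after median centring. Without 1 mouse, Spink1 (0.90) ran from −0.14 (without colitis mouse 2) to 1.85 and Tgm4 (0.37) from −0.024 (without colitis mouse 4) to 0.82. The median of a list changed sign in 22 of 680 cases. The causes of these moves were not tested. With no counts, precision at low levels is limited by depth that is known only roughly.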
